A study of Homo sapiens with 32 samples.

Results

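The genes described here are 9 that are mutated in clear cell renal cell carcinoma (ccRCC): the tumour suppressors VHL, PBRM1 and BAP1, the SWI/SNF genes ARID1A and SMARCA4, and the mTOR pathway genes PIK3CA, TSC1, TSC2 and MTOR. They were taken as 9 of 20037 protein-coding genes, and their data are the m6A peaks that overlap a gene body by at least 1 bp, 566 of 474004 peaks in all. MeRIP-seq pulls down RNA fragments with an antibody against N6-methyladenosine (m6A) and calls a peak where the immunoprecipitated (IP) fraction exceeds its Input. The 16 IP libraries came from the ccRCC line 786-O and from RPTEC, immortalized renal proximal tubule cells that serve as surrogate normal cells. Either cell line was represented by WT cells, by the CRISPR clones SETD2KO-1 and SETD2KO-2, and by SETD2KO-1R, a clone derived from SETD2KO-1 by putting back a full-length SETD2 transgene, with 2 libraries for each of these 4 lines. The study asked how loss of the histone H3K36 trimethylase SETD2 alters m6A. SETD2KO-1 and SETD2KO-2 form the SETD2KO side, and WT and SETD2KO-1R the SETD2-expressing side, with 4 libraries a side in each cell line. The 786-O line was grown in RPMI1640 and RPTEC in DMEM F12 with a growth kit, both with serum and with no drug in these samples, so medium and cell line cannot be told apart. As background, 786-O lacks functional VHL protein, and all 786-O lines share that loss.

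The METTL3-METTL14 complex places m6A on nascent RNA, mostly in long exons and around stop codons, and reader proteins bound to the mark alter the splicing, stability and translation of the transcript. VHL is the substrate-binding subunit of a ubiquitin ligase that marks HIF-α for degradation, and its loss is the founding event of most ccRCC. PBRM1 and BAP1 lie on the same chromosome arm as VHL and SETD2. PBRM1 is a bromodomain subunit of the PBAF form of the SWI/SNF remodeller, ARID1A is a DNA-binding subunit of the BAF form, and SMARCA4 is the ATPase of both. BAP1 removes ubiquitin from histone H2A. PIK3CA is the catalytic subunit of PI3-kinase, which signals to AKT. The TSC1-TSC2 complex holds the small GTPase RHEB in its inactive form and so restrains MTOR, the kinase of the growth-controlling complexes mTORC1 and mTORC2.

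Start-site sequence is shown for 4 members, because peaks reached a RefSeq promoter window of these genes in 7 or more libraries. Each line gives 280 bases read 5′ to 3′ on the gene's own strand (RefSeq, GRCh38.p14), with the first 30 transcribed bases in capitals.
ARID1A, chr1:26695765-26696044, forward strand: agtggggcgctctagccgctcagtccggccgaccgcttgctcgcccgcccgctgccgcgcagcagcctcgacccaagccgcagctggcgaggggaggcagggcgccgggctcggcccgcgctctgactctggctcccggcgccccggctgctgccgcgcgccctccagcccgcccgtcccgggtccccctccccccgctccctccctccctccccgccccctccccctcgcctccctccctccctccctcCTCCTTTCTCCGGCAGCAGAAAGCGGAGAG
PBRM1, chr3:52685884-52686163, reverse strand: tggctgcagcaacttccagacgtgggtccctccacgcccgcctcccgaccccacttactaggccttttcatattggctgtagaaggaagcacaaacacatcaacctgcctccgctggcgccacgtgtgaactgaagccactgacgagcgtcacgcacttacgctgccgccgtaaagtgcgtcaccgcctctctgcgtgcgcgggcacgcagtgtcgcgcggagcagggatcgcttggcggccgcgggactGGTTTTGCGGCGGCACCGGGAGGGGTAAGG
SMARCA4, second RefSeq start, chr19:10983874-10984153, forward strand: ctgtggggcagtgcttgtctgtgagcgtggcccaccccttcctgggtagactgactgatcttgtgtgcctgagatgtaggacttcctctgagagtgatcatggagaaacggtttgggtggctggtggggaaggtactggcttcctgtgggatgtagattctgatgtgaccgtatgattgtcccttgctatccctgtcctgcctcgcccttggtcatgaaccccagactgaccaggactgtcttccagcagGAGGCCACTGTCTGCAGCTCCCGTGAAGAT
PIK3CA, chr3:179148107-179148386, forward strand: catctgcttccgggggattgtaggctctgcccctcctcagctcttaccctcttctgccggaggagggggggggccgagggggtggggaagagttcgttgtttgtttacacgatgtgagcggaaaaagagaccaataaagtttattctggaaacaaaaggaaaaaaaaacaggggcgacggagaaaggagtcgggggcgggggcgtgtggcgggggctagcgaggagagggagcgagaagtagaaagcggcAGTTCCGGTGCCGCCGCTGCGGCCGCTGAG
The ARID1A window was overlapped by a peak in 15 of 16 libraries, the PBRM1 window in 13, the PIK3CA window in 12 and the second SMARCA4 window in 7. A second PBRM1 window, chr3:52685550-52685849, was overlapped in 12 and is not printed, since it lies next to the first in the same peak region. Across all 22199 windows of the same length, 31.0% were overlapped in any library and 4.87% in 12 or more. The first SMARCA4 window and both TSC2 windows were overlapped in 2 libraries, all of 786-O, the TSC1 window in 1 and the MTOR window in none. GGAC, a form of the motif that METTL3 prefers, was searched on both strands of the full windows. It was absent from both strands of the PIK3CA window and from the sense strand of the ARID1A window. Most of each window lies upstream of its RefSeq start. The summits of the best peaks in the ARID1A start region, and the median summits of the PIK3CA start region, lay past these windows. The absence of GGAC there thus says nothing of the sites under those summits. The printed PBRM1 window held 1 sense and 1 antisense match, the unprinted one 1 sense and no antisense match, and the second SMARCA4 window 2 sense and 3 antisense matches. Of all windows, 69.3% held GGAC on the sense strand and 69.5% on the antisense strand, so a match says little by itself.

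The lists held 25710 to 39670 peaks per library in 786-O and 19249 to 31207 in RPTEC. They give no read counts, and the methods state only a minimum number of reads for all libraries, so the depth behind a peak is unknown and the precision of a single call cannot be stated. Of the 566 peaks in the 9 genes, 302 were in 786-O and 264 in RPTEC, which is 28 to 47 and 22 to 45 per library. Within each cell line, a pair of libraries shared fewer regions with the rest. Their mean Jaccard index with the other 7 libraries was 0.363 for 786-O SETD2KO-2 replicate 2 and 0.343 for 786-O SETD2KO-1R replicate 2, against 0.404 to 0.429 for the other 786-O libraries. It was 0.341 for RPTEC WT replicate 2 and 0.318 for RPTEC SETD2KO-2 replicate 2, against 0.361 to 0.391 for the other RPTEC libraries. Each pair holds 1 library of either side. The renal epithelial markers PAX8, PAX2, CDH2, KRT8 and KRT18 had a peak in all 16 libraries, and CDH1, LRP2 and AQP1 in none. EPCAM had a peak in 0 libraries of 786-O and 2 of RPTEC, and CUBN in 1 and 0. Among fibroblast, endothelial and leukocyte markers, COL3A1, DCN, PECAM1, KDR, PTPRC and CD3E had none. The others had peaks, mostly in RPTEC for the fibroblast and endothelial ones: COL1A1 in 1 library of 786-O and 6 of RPTEC, CDH5 in 0 and 4, and PDGFRA in 0 and 2. The macrophage marker CD68, also a lysosomal protein of other cells, had a peak in 8 libraries of 786-O and 7 of RPTEC. The part of these markers in the differences between cell lines was not tested.

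All 9 genes carried m6A peaks, and 7 of them did so in every library, as did 4626 of the 12685 genes with a peak in at least 2 libraries. BAP1 lacked a peak in 786-O SETD2KO-2 replicate 2 and 786-O SETD2KO-1R replicate 2, both among the libraries with few shared regions, and TSC2 lacked one in 786-O WT replicate 1 and RPTEC SETD2KO-1 replicate 2. Per 10 kb of gene body, the mean over 16 libraries was highest in the short genes BAP1 (2.50 peaks) and VHL (1.16), followed by ARID1A (0.871), SMARCA4 (0.833), TSC1 (0.810), TSC2 (0.422), PBRM1 (0.351), PIK3CA (0.306) and MTOR (0.124). The median gene with a peak in at least 2 libraries had 0.444. ARID1A, SMARCA4 and TSC1 lay close together in this order, and the ranges of their libraries overlapped. The plot of peak numbers by line shows that libraries of 1 line often differed as much as lines did.

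**Figure D1:**
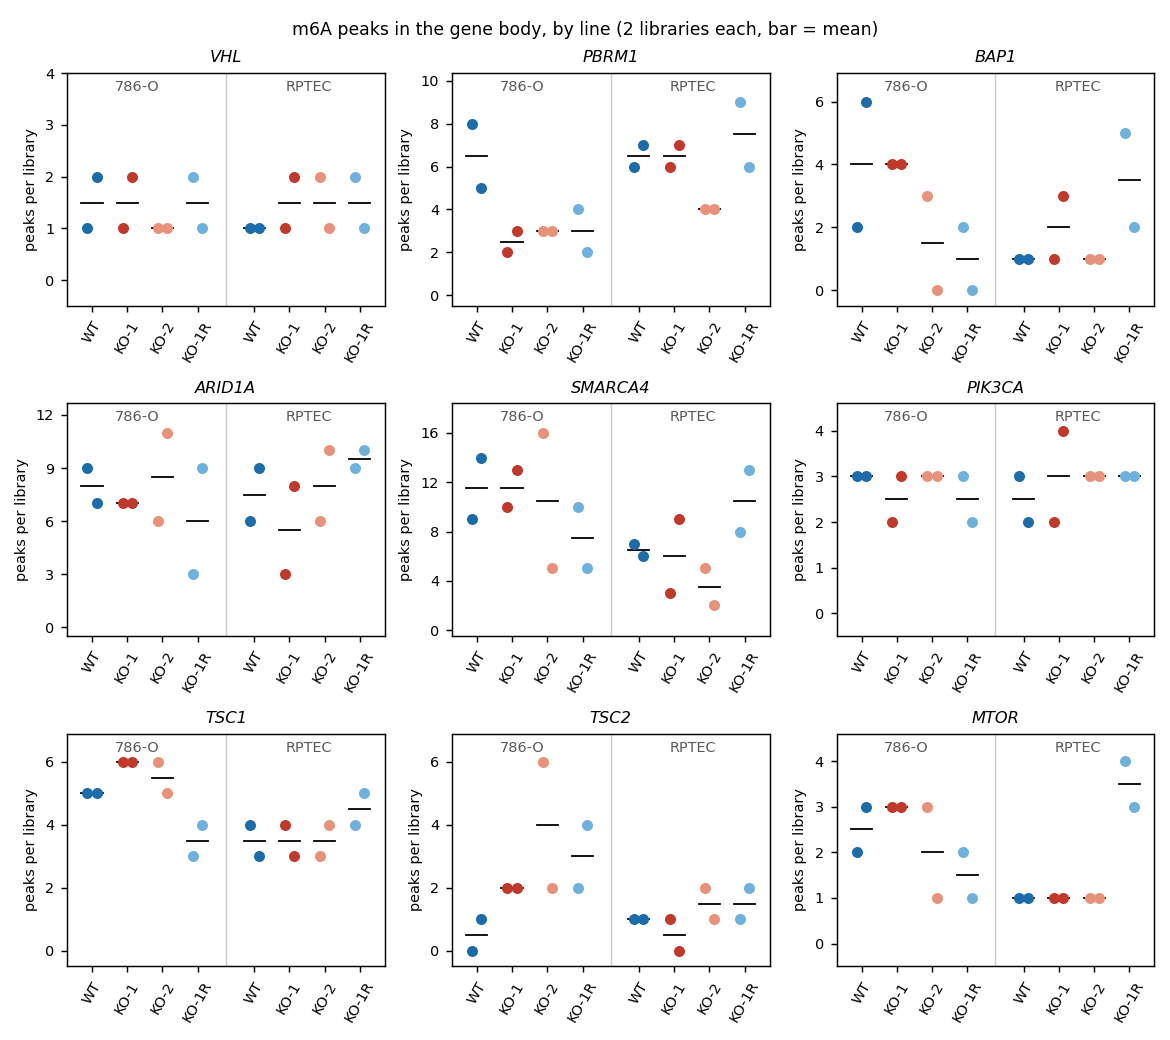
Number of m6A peaks overlapping the gene body (y axis) in each library, by line (x axis), for the 9 genes; points are libraries, horizontal bars are the mean of 2 libraries, and red shades mark the SETD2KO clones. MTOR in RPTEC had 1 peak in every library except those of SETD2KO-1R, with 4 and 3, and PBRM1 in 786-O had 8 and 5 peaks in WT against 2 to 3 in the SETD2KO clones and 4 and 2 in SETD2KO-1R.

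When peaks of all 16 libraries were merged into regions, the 9 genes held 103 regions. Of these, 8 were called in all 16 libraries, in 5 genes, which is 7.77% of the regions, against 4.86% of all regions in protein-coding genes. Another 31 regions were called in a single library. With regions merged within a cell line, 29.9% of member regions in 786-O and 28.9% in RPTEC were called in 1 library. Over all regions in protein-coding genes these shares were 38.0% and 40.4%. The 8 shared regions were 1 in VHL, 1 in PBRM1, 3 in ARID1A, 1 in PIK3CA and 2 in TSC1.

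VHL, on chromosome 3 (10141778-10153667), carried a single merged region, chr3:10141613-10142995, at the low-coordinate end of the gene body. A peak lay there in all 16 libraries, so the m6A calls of the VHL locus were as regular in 786-O as in RPTEC. Each library had 1 or 2 VHL peaks, with a mean of 1.38 ± 0.518 (SD, n = 8) in both cell lines. The region held 2 parts in RPTEC. Its inner part, chr3:10142263-10142995, was called in all 8 RPTEC libraries, and its outer part, chr3:10141734-10142111, in SETD2KO-1 replicate 2, SETD2KO-2 replicate 1 and SETD2KO-1R replicate 1. A peak covered the annotated first base at 10141778 in 5 libraries of 786-O and 3 of RPTEC. The score percentile of the best VHL peak within its list, where 100 is the highest score, had a median of 91.2 in 786-O (39.7 to 98.1) and 85.4 in RPTEC (52.3 to 98.3). Over all 16 libraries the median was 90.0, where the median of the 4626 genes with a peak in every library was 81.9. The low value of 39.7 came from 786-O SETD2KO-2 replicate 2, which had no peak in the outer part.

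BAP1, on chromosome 3 (52401008-52410008), had 6 merged regions. The most regular was chr3:52409594-52410150 at the high-coordinate end, called in 14 libraries, all 8 of RPTEC and 6 of 786-O. In 786-O, BAP1 had 2 and 6 peaks in WT, 4 and 4 in SETD2KO-1, 3 and 0 in SETD2KO-2, and 2 and 0 in SETD2KO-1R. In RPTEC it had 1 and 1 in WT, 1 and 3 in SETD2KO-1, 1 and 1 in SETD2KO-2, and 5 and 2 in SETD2KO-1R. The sides overlapped in both cell lines, and in RPTEC the highest values were those of SETD2KO-1R replicate 1 and SETD2KO-1 replicate 2. Inside the gene, chr3:52406880-52407143 was called in both WT libraries of 786-O and both SETD2KO-1R libraries of RPTEC, and in no SETD2KO library of either cell line. It was also absent from both 786-O SETD2KO-1R libraries and both RPTEC WT libraries, so the same status gave different calls. The best BAP1 peak ranged from the 15.97 to the 95.9 percentile in RPTEC, the widest spread of the members in that cell line.

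PBRM1, on chromosome 3 (52545367-52685913), was the 1 of 9 members whose peaks passed the test between cell lines on scaled measures, though not in peak number itself. In 786-O it had 8 and 5 peaks in WT, 2 and 3 in SETD2KO-1, 3 and 3 in SETD2KO-2, and 4 and 2 in SETD2KO-1R. In RPTEC it had 6 and 7 in WT, 6 and 7 in SETD2KO-1, 4 and 4 in SETD2KO-2, and 9 and 6 in SETD2KO-1R. All RPTEC libraries had 4 or more, and in 786-O only both WT libraries and SETD2KO-1R replicate 1 reached that number. The mean was 3.75 ± 1.98 in 786-O and 6.13 ± 1.64 in RPTEC (SD, n = 8 each), a difference of -2.38 (786-O minus RPTEC) with exact permutation p = 0.0319 and adjusted p = 0.196 over all genes tested. The 786-O lists were longer, and per 10000 peaks of its list PBRM1 had a median of 0.940 in 786-O (0.611 to 2.54) and 2.24 in RPTEC (1.52 to 3.09), with adjusted p = 0.0345 in the exact permutation test, which 7.79% of all genes passed on this scale. Peaks covered a median of 1202 bp of the gene in 786-O (739 to 2531) and 2565 bp in RPTEC (1532 to 2880), with adjusted p = 0.0338 in the exact permutation test, which 14.4% of all genes passed in this measure. The same exact permutation test gave adjusted p = 0.0326 when all lists were shortened to equal length (3.73% of all genes passed) and adjusted p = 0.0372 without 786-O WT replicate 1 (6.57%). As 1 of 9 members, PBRM1 does not set the members apart from these shares. It stayed above 0.05 in the other settings in which any gene passed, the upper 50% of every list (0.0517) included.

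The map of peaks along the SWI/SNF genes shows the regions of PBRM1. The region chr3:52609467-52610205 was called in all 16 libraries and held the best PBRM1 peak in 11 of them. The start region, chr3:52685564-52686353, was called in 7 libraries of 786-O and 6 of RPTEC; it also overlaps GNL3, and the lists have no strand, so the genes cannot be told apart there. In the body, and picked after the gene's peak numbers were seen, chr3:52593827-52595498 was called in 2 libraries of 786-O and 6 of RPTEC, and chr3:52561927-52562228 in 2 and 5. The region chr3:52617352-52617798 was called in 5 libraries of 786-O and 7 of RPTEC, with summits that had an SD of 35.4 bp over 12 libraries. In 786-O the calls came from WT and SETD2KO-1R, 4 of 4 libraries, and from SETD2KO-2 replicate 1 as the 1 SETD2KO library. In RPTEC all 4 SETD2KO libraries called it, so the 786-O pattern was not seen there. The best PBRM1 peak had a median percentile of 66.6 in 786-O (52.9 to 89.8) and 88.6 in RPTEC (76.9 to 91.0).

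**Figure D2:**
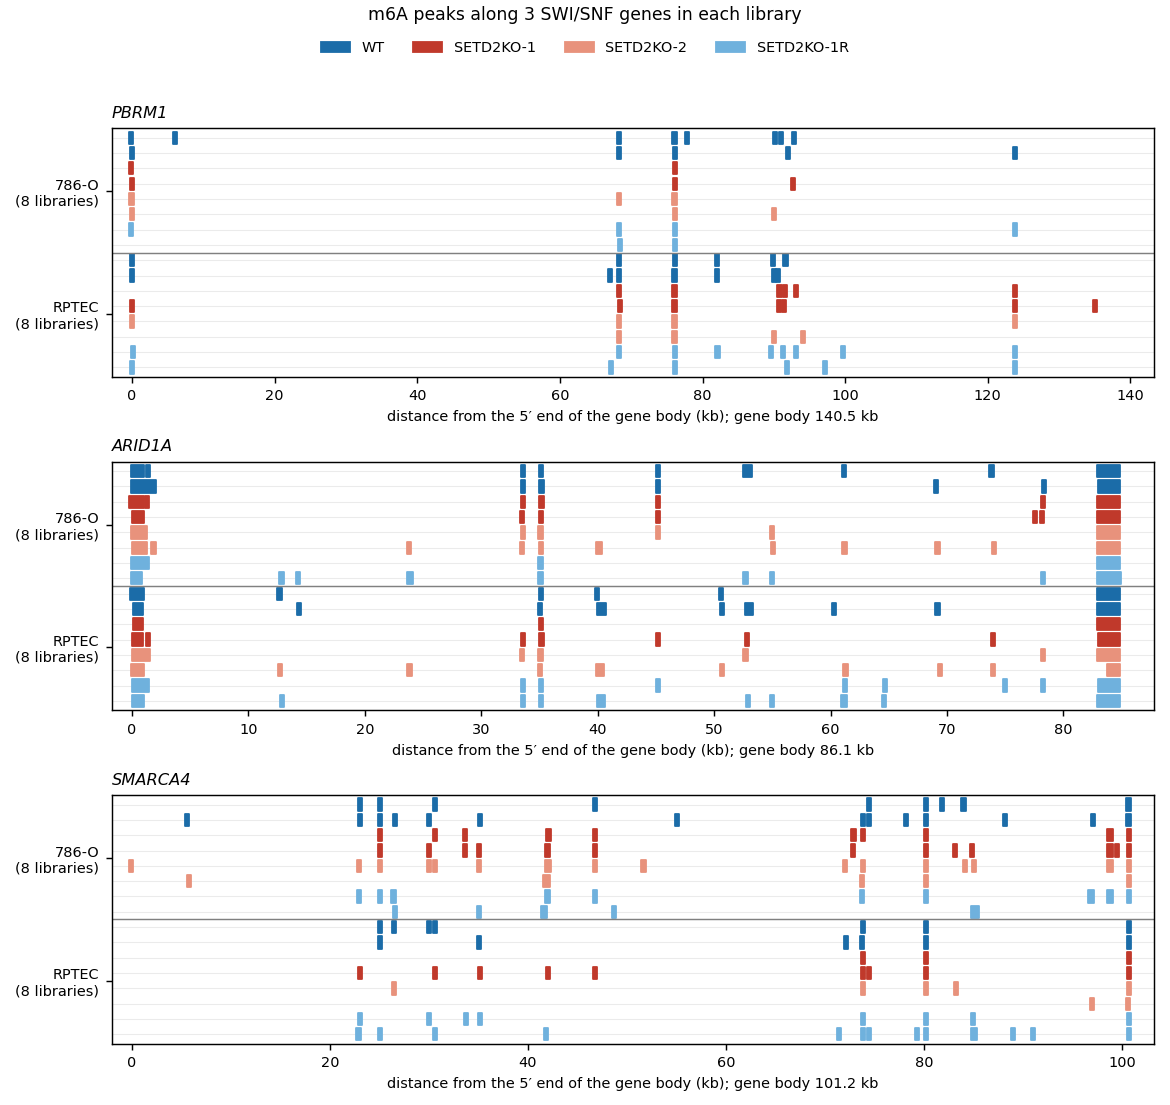
Peaks along PBRM1, ARID1A and SMARCA4 (x axis, kb from the 5′ end of the gene body) in each library, with 2 rows for each line, from top to bottom WT, both SETD2KO clones in numerical order and SETD2KO-1R, of 786-O and then of RPTEC; bars are peaks, drawn no narrower than a small fixed width so that they can be seen. ARID1A has the same start and end regions in all 16 rows, and SMARCA4 has its peaks in many regions of which none fills all rows.

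ARID1A, on chromosome 1 (26696015-26782104), had 3 to 11 peaks in 786-O (median 7) and 3 to 10 in RPTEC (median 8.5). Its 20 merged regions included 3 that were called in all 16 libraries. The first, chr1:26695732-26698049, lay over the start of the gene and held the best ARID1A peak in 13 libraries, with a summit SD of 31.4 bp. The second, chr1:26730902-26731431, had a summit SD of 19.5 bp and percentiles of 85.8 to 97.4. The third, chr1:26778886-26780932, ended 1172 bp before the 3′ end of the gene body. The start region also overlaps LOC124900417. The best ARID1A peak was among the strongest of its list, with a percentile of 96.3 to 99.9 in 786-O and 87.7 to 99.6 in RPTEC. The lowest value was that of RPTEC SETD2KO-1 replicate 1, which also had the fewest ARID1A peaks of its cell line.

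SMARCA4, on chromosome 19 (10961030-11062273), had the most peaks of the 9 genes, 135 in the 16 libraries, and best scores at the 98.4 to 99.9 percentile in every library. The median over 16 libraries was 99.3, the highest of the members, with ARID1A next at 98.8 and above SMARCA4 in some libraries. Its 33 merged regions included none that was called in all 16 libraries. The end region, chr19:11061469-11061923, lay 350 bp from the 3′ end and was called in 15, and chr19:11041064-11041407 was called in 14 and chr19:11034636-11035018 in 12. Summits within these regions were narrow, with an SD of 10.4 bp in the end region, 51.0 bp in the second and 9.43 bp in the third. The best SMARCA4 peak lay in 4 different regions, most often the third (6 libraries) and the end region (5 libraries). In 4 libraries, all of 786-O, it lay in chr19:10995931-10996354. In 786-O, SMARCA4 had 9 and 14 peaks in WT, 10 and 13 in SETD2KO-1, 16 and 5 in SETD2KO-2, and 10 and 5 in SETD2KO-1R. In RPTEC it had 7 and 6 in WT, 3 and 9 in SETD2KO-1, 5 and 2 in SETD2KO-2, and 8 and 13 in SETD2KO-1R. The sides overlapped in both cell lines, in RPTEC only through SETD2KO-1 replicate 2. Without that library, singled out after its value was seen, the sides had 2 to 5 and 6 to 13, a separation that 4.81% of all genes showed in that setting. The second RefSeq start of SMARCA4, whose sequence is given above, lay in chr19:10983696-10984172, called in 4 libraries of 786-O and 3 of RPTEC.

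PIK3CA, on chromosome 3 (179148126-179240093), had most of its peaks in 3 regions. It had 2 to 3 peaks per library in 786-O and 2 to 4 in RPTEC. The region chr3:179233929-179234674 was called in all 16 libraries, chr3:179198524-179199033 in 15, all but RPTEC WT replicate 2, and the start region chr3:179148035-179148628 in 12. Only 1 further region in each cell line was called, in 1 library each. The best PIK3CA peak in 786-O had percentiles of 79.8 and 68.5 in WT, 81.9 and 76.4 in SETD2KO-1, 80.0 and 91.8 in SETD2KO-2, and 62.9 and 39.4 in SETD2KO-1R. Of the 4 SETD2KO libraries, 3 lay above all SETD2-expressing ones, and SETD2KO-1 replicate 2 lay below WT replicate 1. The difference was 19.9 percentile points with exact permutation p = 0.0571 and adjusted p = 0.692. In RPTEC the sides differed by 0.0826 points.

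TSC1, on chromosome 9 (132891349-132945378), carried its peaks near the 3′ end. Regions chr9:132891572-132893663, which ended 223 bp from the 3′ end, and chr9:132896008-132897009 were called in all 16 libraries, and chr9:132905680-132906477 in 13. In 786-O, TSC1 had 5 and 5 peaks in WT, 6 and 6 in SETD2KO-1, 6 and 5 in SETD2KO-2, and 3 and 4 in SETD2KO-1R. Both clones were at or above WT and the re-expressing clone below all others, with overlap at 5 peaks alone. The mean difference was 1.5 peaks (SETD2KO minus SETD2-expressing, exact permutation p = 0.0857, adjusted p = 1). In RPTEC the sides had 3 to 4 and 3 to 5. TSC1 was the 1 of 7 members tested whose best score separated the sides in 786-O, where 4.57% of 6394 genes did. The percentiles in 786-O were 92.7 and 92.1 in SETD2KO-1 and 90.8 and 85.8 in SETD2KO-2, against 83.6 and 75.9 in WT and 81.7 and 61.0 in SETD2KO-1R. The difference of 14.8 points had the smallest p the design allows (exact permutation p = 0.0286), and adjusted p = 0.626. It turned to -5.32 points, with exact permutation p = 0.286, when the mean percentile of all TSC1 peaks was taken in place of the best. In RPTEC the best percentiles overlapped, at 64.2 to 70.5 in SETD2KO libraries and 55.9 to 81.8 in SETD2-expressing ones. A further region, chr9:132943788-132944591, lay near the RefSeq start and was called in 4 libraries of 786-O (WT replicate 2, both of SETD2KO-1 and SETD2KO-2 replicate 1) and none of RPTEC.

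**Figure D3:**
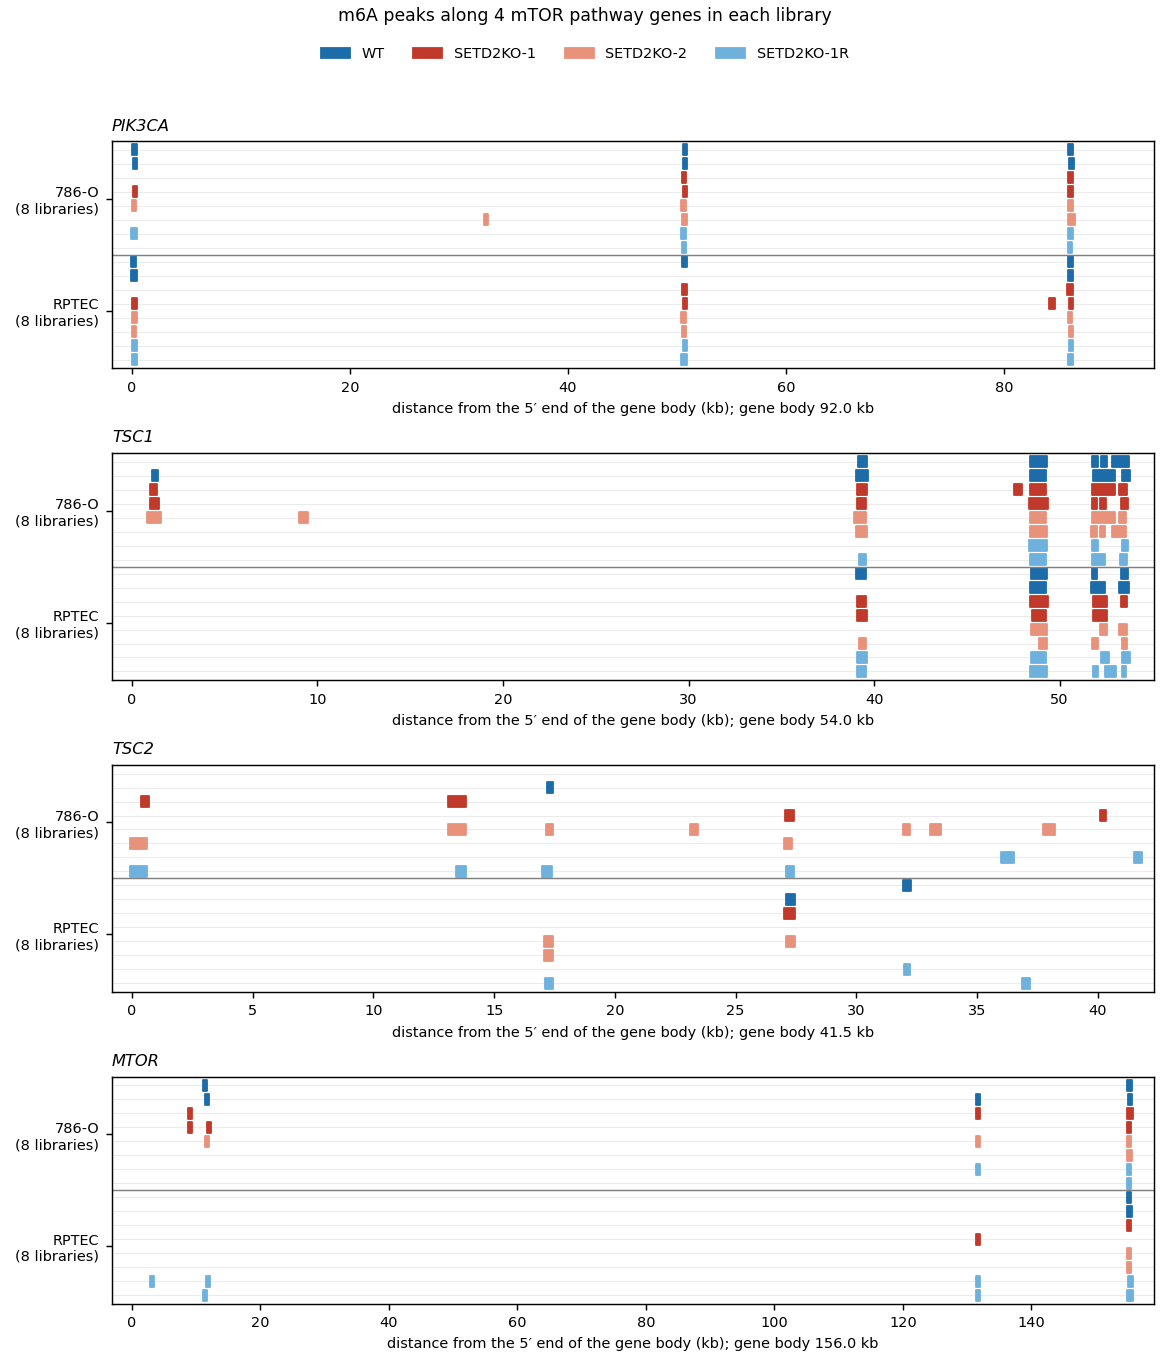
Peaks along PIK3CA, TSC1, TSC2 and MTOR (x axis, kb from the 5′ end of the gene body) in each library, with 2 rows for each line, from top to bottom WT, both SETD2KO clones in numerical order and SETD2KO-1R, of 786-O and then of RPTEC; bars are peaks, drawn no narrower than a small fixed width. PIK3CA, TSC1 and MTOR show columns of peaks at the same place in most rows, whereas the TSC2 peaks are scattered.

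TSC2, on chromosome 16 (2047985-2089491), had the least regular peaks. In 786-O it had 0 and 1 in WT, 2 and 2 in SETD2KO-1, 6 and 2 in SETD2KO-2, and 2 and 4 in SETD2KO-1R. All SETD2KO libraries thus had more than WT, which 9.59% of all genes showed in one direction or the opposite one, and SETD2KO-1R lay within their range. In RPTEC it had 0 to 2 peaks. Its 12 merged regions were called in at most 7 libraries, and 6 of them in 1. The most frequent, chr16:2089458-2090133, lay mostly past the 3′ end in PKD1, and in 1 of its 7 libraries did its peak reach the last base of TSC2. A region over the start of TSC2, chr16:2047888-2048676, was called in 3 libraries of 786-O (SETD2KO-1 replicate 1, SETD2KO-2 replicate 2 and SETD2KO-1R replicate 2) and held the best TSC2 peak in each of them. The best TSC2 peak ranged from the 4.34 to the 95.0 percentile in 786-O and from 8.45 to 61.1 in RPTEC.

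MTOR, on chromosome 1 (11106535-11262551), had the fewest peaks per length. Its main region, chr1:11106810-11107635, lay 275 bp from the 3′ end and was called in all 8 libraries of 786-O and in 7 of RPTEC, all but SETD2KO-1 replicate 2. The next, chr1:11130672-11131005, was called in 4 and 3. In 786-O, MTOR had 2 and 3 peaks in WT, 3 and 3 in SETD2KO-1, 3 and 1 in SETD2KO-2, and 2 and 1 in SETD2KO-1R. In RPTEC, the libraries of WT and of both SETD2KO clones had 1 peak each and those of SETD2KO-1R had 4 and 3. The re-expressing clone stood above the other RPTEC lines, which were alike in number. Its libraries also held the most peaks over all 9 genes, 45 each against 22 to 37 in the other RPTEC libraries, and the part of this in the MTOR values was not tested. The best peak of SETD2KO-1R replicate 1 lay near the start of the gene, in chr1:11259361-11259593. The best percentiles of this clone, 93.5 and 77.7, were also above 51.9 and 52.9 in WT, 59.9 and 35.4 in SETD2KO-1, and 41.8 and 28.0 in SETD2KO-2. The difference between the sides in RPTEC was -27.7 points (exact permutation p = 0.0857, adjusted p = 0.859). In 786-O the SETD2KO-1R libraries, at 53.3 and 42.1, were below WT, at 69.5 and 73.6.

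**Figure D4:**
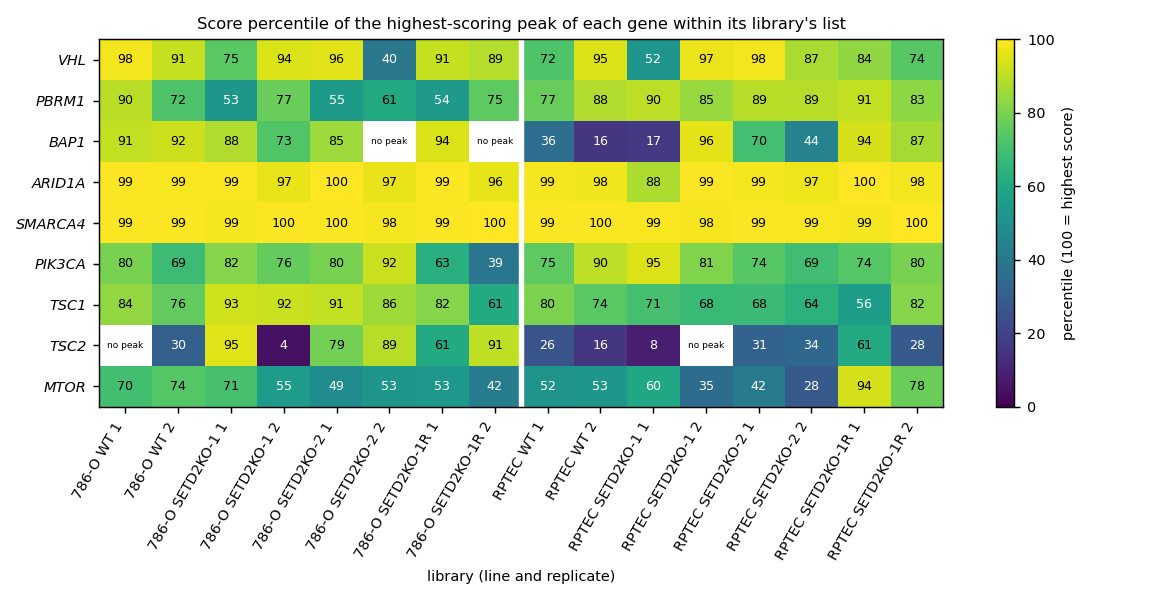
Percentile of the highest-scoring peak of each gene (rows) within the peak list of each library (columns), where 100 is the highest score of the list and white cells have no peak. SMARCA4 lies at 98.4 or above in every library, ARID1A at 87.7 or above, and TSC2 ranges from 4.34 to 95.0.

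Set against all genes, SETD2 status did not separate the peak numbers of any member. In 786-O, 0 of 9 members had SETD2KO and SETD2-expressing libraries that did not overlap, where 2.6% of 11596 genes did. In RPTEC it was 0 of 9, where 2.64% of 11178 genes did. No gene passed an adjusted p of 0.05 in either cell line. With 4 against 4 libraries none could unless most genes separated, so the adjusted test decides nothing here. The 301 and 295 genes with an unadjusted exact permutation p under 0.05 are the genes whose sides did not overlap, and no further result. The smallest p that 4 against 4 libraries allow is 0.0286, and the libraries of 1 line share a clone, so the effective number of units is smaller still. At the level of regions, 0 of 87 member regions in 786-O were called in 4 libraries of one side and 0 of the opposite side, where 0.432% of 65991 regions in protein-coding genes were. In RPTEC it was 0 of 76, where 0.408% of 59064 were. Allowing 1 library to depart gave 2 regions in each cell line: in 786-O the PBRM1 region described above and chr19:10987180-10987699 in SMARCA4, and in RPTEC chr3:52603686-52603980 in PBRM1 and chr19:10985943-10986239 in SMARCA4. The shares over all regions under that rule were 3.41% and 3.14%.

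For the best score, 1 of 7 members with a peak in all 8 libraries of 786-O, TSC1, did not overlap between the sides, where 4.57% of 6394 genes did not. In RPTEC it was 0 of 8 members, where 3.71% of 5362 genes did not. No gene passed an adjusted p of 0.05 in this measure, which the design again puts out of reach unless most genes separate. The 292 and 199 genes with an unadjusted exact permutation p under 0.05 are again those without overlap. With 7 members tested, 1 gene is the smallest count above none.

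Between the cell lines, 0 of 9 members passed an adjusted p of 0.05 in peak number, where 5.75% of 12685 genes did. TSC1 came nearest after PBRM1, with 5 ± 1.07 peaks in 786-O and 3.75 ± 0.707 in RPTEC (SD, n = 8 each; exact permutation p = 0.0340, adjusted p = 0.203). SMARCA4 had 10.3 ± 3.99 and 6.63 ± 3.5 (exact permutation test, adjusted p = 0.335), and the other members had an adjusted p of 0.429 or above. The median difference over all genes tested was 0.25 peaks towards 786-O. The effect of SETD2KO on peak number was also compared between the cell lines. No member passed after adjustment, and neither did any other of the 12685 genes. This test therefore cannot tell whether the effect differed for a member. The smallest p among the members was that of TSC1, whose effects differed by 2 peaks (exact permutation p = 0.0445, adjusted p = 1), and SMARCA4 differed by 5.25 peaks with a wider spread (exact permutation p = 0.191, adjusted p = 1).

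SETD2 itself, the targeted gene, kept peaks in all 16 libraries. A CRISPR clone can still transcribe the gene, so this is no check of the knockout. In RPTEC it had 7 and 10 peaks in WT, 6 and 4 in SETD2KO-1, 4 and 5 in SETD2KO-2, and 11 and 10 in SETD2KO-1R, so the sides did not overlap (difference -4.75, exact permutation p = 0.0286, adjusted p = 1). Per 10000 peaks of the list the sides overlapped, with a difference of -1.50 in the same direction (exact permutation p = 0.0571). In 786-O it had 8 and 10, 5 and 10, 5 and 4, and 7 and 9 in the same order, and the sides overlapped. The transgene carries SETD2 coding sequence, and its transcripts cannot be told apart from those of the locus in SETD2KO-1R.

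Among partners of the 9 genes, mTOR pathway genes separated by SETD2 status about as often as all genes did. Of 43 further mTOR pathway genes, 38 could be tested for peak number in 786-O, where 2.6% of all genes separated, and 36 in RPTEC, where 2.64% did. NPRL2, a subunit of the GATOR1 complex that restrains mTORC1, was the 1 gene whose peak numbers did not overlap in 786-O, with 1, 1, 2 and 1 peaks in SETD2KO libraries and none in SETD2-expressing ones. It passed the filter of a peak in at least 2 libraries through its SETD2KO libraries alone, so these values are a description. In RPTEC it was STK11 alone, the kinase that activates AMPK, with 1, 3, 2 and 2 peaks in SETD2KO libraries against 5, 4, 5 and 4 in SETD2-expressing ones. Its best percentile in 786-O, as 1 of 23 mTOR pathway genes tested in that measure (4.57% of all genes), was lower in SETD2KO libraries, at 83.2 to 95.0 against 95.6 to 96.2, and the mean percentile of all STK11 peaks turned the other way, by 9.1 points. The best score of MAPKAP1, an mTORC2 subunit, was the 1 of 21 that did not overlap in RPTEC (3.71% of all genes), at 25.6 to 80.9 in SETD2KO libraries and 87.1 to 96.2 in SETD2-expressing ones. STK11 and MAPKAP1 each had the exact permutation p of 0.0286, with adjusted p of 0.626 to 1.

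RPTOR, the scaffold of mTORC1, was the 1 of 38 mTOR pathway genes that passed between the cell lines, where 5.75% of all genes did. It had a median of 17 peaks in 786-O (8 to 28) and 7 in RPTEC (6 to 10), with adjusted p = 0.0239 in the exact permutation test. In the exact permutation test the difference did not pass with lists of equal length (adjusted p = 0.413) or in the upper 50% of every list (adjusted p = 0.217). Of 17 further SWI/SNF subunits, none separated by SETD2 status in peak number in either cell line, where 2.6% and 2.64% of all genes did. By best score, 1 of 11 subunits tested in 786-O separated (4.57% of all genes) and 0 of 7 in RPTEC (3.71%). It was ARID2, a PBAF subunit, at 67.4 to 78.8 in SETD2KO libraries and 79.2 to 84.8 in SETD2-expressing ones, and with the mean percentile of all its peaks the difference was 0.13 points in the opposite direction. Of 13 genes of the VHL and BAP1 complexes, 13 were tested for peak number in 786-O and 11 in RPTEC, and 10 and 7 for the best score. None of these separated, where 2.6% and 2.64% of all genes did in peak number and 4.57% and 3.71% in the best score. Among 7 other ccRCC genes, SETD2 in RPTEC was the 1 that did. No gene of these 3 lists passed between the cell lines, where 5.75% of all genes did. The median difference between the sides was 0 peaks for the mTOR pathway and 0 for SWI/SNF subunits in 786-O, where the median over all genes was 0, and -0.5 for both in RPTEC, where it was -0.25. For the VHL and BAP1 complexes and the other ccRCC genes the median difference was 0.25 each in 786-O, and -0.5 and -0.25 in RPTEC. Their medians in the best score were 0.176 and 1.19 percentile points in 786-O, and -0.390 and -3.11 in RPTEC. In the best score the median difference was 3.44 percentile points for the mTOR pathway and -1.47 for SWI/SNF subunits in 786-O, where the median over all genes was 0.00187, and -1.13 and -7.07 in RPTEC, where it was -1.25. These medians are descriptions with no test.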

How the data were processed

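The deposited files are 1 peak list per IP library, 16 in all, and the 16 Input samples have no list here. Per the labels and the methods, the authors aligned reads with STAR, counted with HTSeq, scaled with added E. coli RNA and ran MACS2 on each IP library with its Input as background (hg38). The deposited score of a peak is a whole number whose scale is not given in the sources used here, so it served only for ranks within a list. The other deposited number used is the summit position, in bp from the peak start. The lists hold no read counts, and the methods give a minimum of reads per sample rather than each library's depth.

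Peaks were assigned to protein-coding gene bodies of RefSeq (GRCh38.p14, 20037 genes, without exons), by an overlap of at least 1 bp. Libraries were grouped by the sample titles. Genes with a peak in at least 2 of the libraries compared were tested by two-sided exact permutation of libraries on peak number (70 arrangements of 4 against 4, 12870 of 8 against 8, and 4900 for the difference between cell lines) with Benjamini-Hochberg adjustment over all genes tested. The score percentile was tested for genes with a peak in all 8 libraries of a cell line. A gene or region counted as separated when the sides did not overlap. Libraries of 1 line share a clone and no source says that replicates were separate cultures, so p-values measure the spread between these libraries.

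All 9 members are named, SETD2 as the targeted gene, and of the pathway lists every gene separated by SETD2 status and up to 3 genes per direction past adjusted p 0.05 between cell lines. The members and lists were chosen with earlier results of these data known. Promoter windows of 7 members were matched in the RefSeq table by symbol; VHL and BAP1 were not. No 2 lists held the same peaks. The steps were tested on simulated data with planted genes. Alternatives were the upper part of each list, equal list lengths, overlap rules, merged or long peaks, other measures and filters, single clones, leaving out each library in turn and a replicate block. Leaving aside the 2 libraries of a cell line that shared the fewest regions was added after seeing the data. Python 3.11.15 was used with pandas 2.3.3, numpy 2.4.6 and matplotlib 3.10.9.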

Additional observations from a re-analysis of the deposited data

Results flagged for a closer look

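In 11 of 36 groups of 4 libraries, 1 library lay apart from 3 that were equal to each other, a gap above Dixon's critical value for 4 samples. Peak numbers are small whole numbers, so 3 equal values are common, and by chance about 1 in 20 groups is set apart with continuous values. The VHL peak number was 2 in 786-O SETD2KO-1 replicate 2 and 2 in RPTEC SETD2KO-1R replicate 1, against 1 in the others of each group. PBRM1 had 2 peaks in 786-O SETD2KO-1 replicate 1 against 3 in the other SETD2KO libraries. BAP1 had 3 in RPTEC SETD2KO-1 replicate 2 against 1. PIK3CA had 2 against 3 in 786-O SETD2KO-1 replicate 1, in 786-O SETD2KO-1R replicate 2 and in RPTEC WT replicate 2. TSC1 had 5 in 786-O SETD2KO-2 replicate 2 against 6. TSC2 had 6 in 786-O SETD2KO-2 replicate 1 against 2, and 2 in RPTEC SETD2KO-1R replicate 2 against 1. MTOR had 1 in 786-O SETD2KO-2 replicate 2 against 3. Of the 786-O cases, 3 fall on the pair of 786-O libraries that shared the fewest regions with the rest.

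No difference between the cell lines in the effect of SETD2KO passed the adjusted threshold for a member or for any of 12685 genes (exact permutation test with Benjamini-Hochberg adjustment), and 485 genes had an unadjusted p under 0.05.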

How the results depend on the processing

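Of 142 counts recomputed under the alternatives, 115 stayed within 1.5 times the reported count and 27 did not. All reported counts except that of best scores in 786-O were 0, so for them this means staying at 0. The 115 also include settings in which no gene at all passed, so they are no measure of stability. Shares in parentheses are those over all genes or regions in the same setting. For peak numbers in 786-O, 2 of 9 members separated in SETD2KO against WT alone (PBRM1 and TSC2, 9.59%), 1 in SETD2KO-1 alone (TSC1, 8.12%) and 2 without the libraries of least sharing (PBRM1 and TSC1, 6.72%), while leaving out 1 library gave 0 to 1 (TSC1 without SETD2KO-2 replicate 2, 4.95%, and PBRM1 without SETD2KO-1R replicate 2, 3.79%). In RPTEC, SETD2KO-2 alone gave 2 of 9 (PBRM1 and SMARCA4, 8.8%), and leaving out 1 library 0 to 1 (SMARCA4 without SETD2KO-1 replicate 2, 4.81%). Between the cell lines, the smaller designs (either side alone, or without the libraries of least sharing) left no gene past adjusted p 0.05 in the exact permutation test, so they say nothing of any member. With both sides and all libraries, PBRM1 was the 1 of 9 members that passed with equal list lengths (3.73%), base pairs covered (14.4%) and peaks per 10000 (7.79%), and leaving out 1 library gave 0 to 1 (PBRM1 without 786-O WT replicate 1, 6.57%).

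For regions in 786-O, equal list lengths gave 1 (0.408%), SETD2KO against WT 3 (2.5%), all but at most 1 library 2 (3.41%), and leaving out 1 library 0 to 1 (PBRM1 without SETD2KO-2 replicate 1, 0.77%, and SMARCA4 without WT replicate 1, 0.785%). In RPTEC there were 2 against WT (2.37%), 2 for all but at most 1 library (3.14%), and 0 to 1 on leaving out 1 library (SMARCA4 without SETD2KO-1R replicate 1, 0.883%, and PBRM1 without SETD2KO-1R replicate 2, 0.725%). For best scores in 786-O, the mean percentile gave 0 of 7 members (3.86%), leaving the libraries of least sharing aside 2 of 8 (BAP1 and TSC1, 13.2%), and leaving out 1 library 1 to 2 (PIK3CA joined TSC1 without WT replicate 1, 7.23%, or SETD2KO-1 replicate 2, 7.57%). In RPTEC it was 1 of 8 against WT (TSC1, 13.7%), and 0 to 1 on leaving out 1 library (MTOR without SETD2KO-1 replicate 1, 6.37%, and TSC1 without SETD2KO-1R replicate 1, 6.76%). With fewer libraries a separation is easier to reach by construction. With the mean percentile in 786-O the difference turned for TSC1 (-5.32), ARID2 (0.13) and STK11 (9.1), and the cause was not tested. Replicate numbers did not pair most lines (correlations of -0.357 to 0.379 over 12 pairs of lines, 2 of them over 0.1). These 2 were 786-O SETD2KO-2 with SETD2KO-1R (0.379) and RPTEC WT with SETD2KO-2 (0.328). The replicate 2 libraries of these lines are those that shared the fewest regions. The replicate block gave 0 members for SETD2 status in each cell line and 0 between cell lines.

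The lists hold peaks that passed a caller and no reads, so a missing peak is not absence of m6A, and peak number mixes methylation with expression and library efficiency. Clones of the SETD2KO side number 2 in each cell line.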
